A study of Mus musculus with 2 samples.

Results

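The regions described here are 8580 wide PHLPP1 peaks that were listed only in IL-4-treated mouse macrophages and lay far from the ends of protein-coding genes. They were chosen by rule from the 240661 distinct intervals of the IL-4 peak list. A region was kept when it lay on chromosomes 1 to 19, was at least 400 bp wide and shared no base with an untreated peak. Its summit, the position of highest signal, also had to lie more than 10 kb from every annotated end of a RefSeq protein-coding gene. The study mapped DNA associated with PHLPP1 by CUT&Tag in primary bone marrow-derived macrophages grown with 20 ng/ml M-CSF, the growth factor of the lineage. One library came from untreated cells and the other from cells exposed to 20 ng/ml IL-4 for 4 h, so each group had 1 of the 2 libraries. Both were taken as wild type from the series design, although the treatment text shared by both samples also names Phlpp1-deficient cells. No library of deficient cells, control antibody or input DNA was analysed here, and whether the marrow came from 1 or several mice is not given in the sources used here.

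PHLPP1 is a protein phosphatase known for removing an activating phosphate from the kinase AKT. In CUT&Tag an antibody tethers a transposase to chromatin, and the DNA beside the antibody's target is cut and tagged for sequencing. Distal regions of the genome hold enhancers, where transcription factors and their cofactors gather, and also the start sites of noncoding genes and of alternative transcripts inside long genes. IL-4 signals in macrophages through STAT6 and sets up the alternative, tissue-repair type of activation.

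Some of the strongest of these regions lay on annotated transcription start sites inside genes, away from the gene's outer ends. The DNA just upstream of these starts is given here because it is the sequence under the regions on which the comparisons by peak strength rest. The stretches come from the RefSeq start windows on GRCm38.p6 (mm10) and run 5′ to 3′ toward the start site on the strand of the gene. Each is the part of the 250 bases upstream of the start that the region covered. Capitals mark the letters GGGCGG on either strand, which SP and KLF factors are known to bind, and TTC and GAA separated by 4 bases, the spacing that STAT6 prefers. The first 7 are the regions at or above 5 in deposited −log10 q that overlapped a start window. The eighth, Itprid2, is the next in strength.
Slc39a10, chr1:46853619-46853868, minus strand: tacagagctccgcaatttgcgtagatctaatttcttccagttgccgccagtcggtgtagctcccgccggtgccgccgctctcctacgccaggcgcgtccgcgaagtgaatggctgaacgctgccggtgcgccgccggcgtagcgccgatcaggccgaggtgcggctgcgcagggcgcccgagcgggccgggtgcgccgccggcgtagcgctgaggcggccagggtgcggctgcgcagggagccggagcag
D130051D11Rik, chr15:85634442-85634595, plus strand: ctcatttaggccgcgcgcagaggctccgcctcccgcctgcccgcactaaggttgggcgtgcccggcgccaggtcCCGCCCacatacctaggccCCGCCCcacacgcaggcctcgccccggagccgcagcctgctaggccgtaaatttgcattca
Sertad2, chr11:20631727-20631976, plus strand: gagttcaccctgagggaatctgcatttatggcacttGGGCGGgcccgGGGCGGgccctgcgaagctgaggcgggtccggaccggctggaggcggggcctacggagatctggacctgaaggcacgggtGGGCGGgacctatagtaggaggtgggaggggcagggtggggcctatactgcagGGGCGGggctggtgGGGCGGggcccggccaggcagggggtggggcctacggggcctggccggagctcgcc
Sh3tc1, chr5:35729277-35729322, minus strand: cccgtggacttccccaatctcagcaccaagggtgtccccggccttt
Iqgap1, chr7:80803332-80803581, minus strand: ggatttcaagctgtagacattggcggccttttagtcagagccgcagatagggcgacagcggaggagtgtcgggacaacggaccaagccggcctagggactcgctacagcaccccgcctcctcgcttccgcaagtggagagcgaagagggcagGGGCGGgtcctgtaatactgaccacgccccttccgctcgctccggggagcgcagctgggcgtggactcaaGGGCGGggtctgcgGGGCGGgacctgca
Lrif1, chr3:106721432-106721681, plus strand: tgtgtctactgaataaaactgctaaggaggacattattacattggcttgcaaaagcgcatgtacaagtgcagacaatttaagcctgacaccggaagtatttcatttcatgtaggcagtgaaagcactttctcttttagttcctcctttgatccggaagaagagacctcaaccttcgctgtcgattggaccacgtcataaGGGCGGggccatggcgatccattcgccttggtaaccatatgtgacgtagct
Lmna, chr3:88493313-88493342, minus strand: cctcagtcccctgcccaaccacagggggcc
Itprid2, chr2:79635175-79635424, plus strand: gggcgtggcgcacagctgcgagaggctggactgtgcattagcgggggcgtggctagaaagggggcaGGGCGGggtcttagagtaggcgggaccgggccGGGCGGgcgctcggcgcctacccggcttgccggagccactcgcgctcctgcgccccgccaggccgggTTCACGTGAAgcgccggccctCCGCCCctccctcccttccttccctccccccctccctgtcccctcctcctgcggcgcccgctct

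The stretches at Slc39a10, Sertad2, Iqgap1 and Itprid2 were rich in C and G. In the 250 bases upstream of the start, Slc39a10 had 37 CpG dinucleotides and a GC content of 71.6%. Itprid2 had 27 CpG and 75.2%, Iqgap1 had 22 and 66.0%, D130051D11Rik had 19 and 61.6%, and Sertad2 had 17 and 72.8%. Lrif1 had 10 CpG and 45.6% GC. Sh3tc1 and Lmna stood apart from these, with 6 and 4 CpG in the whole 250 bases, and their regions covered only the last 46 and 30 of those bases. The letters GGGCGG occurred 5 times in the Sertad2 stretch and 3 times each in Iqgap1 and Itprid2. The single match to the STAT6 spacing lay in Itprid2, where it read TTCACGTGAA and so also held an E-box, CACGTG. A match is a run of letters, not a binding site.

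Of the 9657 wide distal IL-4 peaks, 8580 (88.8%) had no untreated peak overlapping, which is the rule itself. The same was true of 94.5% of all IL-4 peaks on those chromosomes, so absence from the untreated list was the usual state of an IL-4 peak. With the lists exchanged, 4953 wide distal untreated peaks had no IL-4 peak overlapping. They made up 83.2% of the 5954 wide distal untreated peaks, beside 91.2% of all untreated peaks. These 4953 untreated-only peaks serve below as the mirrored class. The other comparisons are with 161606 distal IL-4-only peaks narrower than 400 bp and with 1077 wide distal IL-4 peaks that an untreated peak did overlap.

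Most of the regions were faint. The fragments at each summit, solved from the deposited fold enrichment and −log10 p, ran from 3 to 16 with a median of 5, and the fold ran from 2.21 to 8.48 with a median of 3.64. The deposited −log10 q ran from 0.393 to 9.71 with a median of 1.26. At q of at most 0.05 stood 2796 regions, or 32.6% (Wilson 95% interval 31.6 to 33.6), beside 12.5% of all IL-4 peaks. At a −log10 q of at least 5 stood 34, or 0.396% (0.284 to 0.553), beside 0.333% of all IL-4 peaks. Width goes with strength and was used to choose the regions, so these values describe them and carry no comparison. In a library from many cells, signal in more cells and more signal per cell cannot be told apart.

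The depth of the lists limits what the absence of an untreated peak means. The untreated list held no peak of fewer than 4 fragments, and its lowest local background was 0.936 fragments, against 3 fragments and 0.643 in the IL-4 list. A peak resting on 3 fragments could therefore be listed only in the IL-4 library. Whether a site of equal strength would be missed in the untreated library, with its higher background, was not tested. Of the 8580 regions, 450 rested on 3 fragments and 2859 (33.3%) on 4 or fewer. In the mirrored class the median was 6 fragments, and 4.58% rested on 4 or fewer. The median local background was 0.989 fragments in that class and 0.646 at the regions. Relative to background the classes were alike, with a median fold of 3.62 and 3.64 in that order. Exact Poisson intervals given with single fragment numbers cover counting error only, and PCR copies are not independent molecules. With 1 library per group there is no replicate check of any difference.

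**Figure D1:**
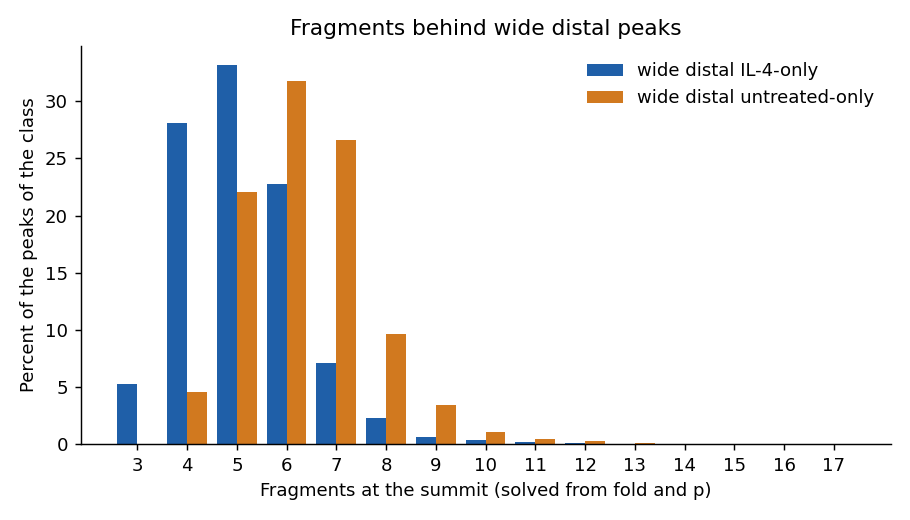
Share of each class, in percent, by the number of fragments at the summit, for the wide distal IL-4-only peaks (blue) and the wide distal untreated-only peaks (orange). Most IL-4-only regions sit at 4 to 6 fragments and the untreated-only peaks one step to the right. The 3 untreated-only peaks with 24 or more fragments lie beyond the axis.

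The strongest region stood near Fos, which encodes a subunit of the AP-1 transcription factor. It spanned chr12:85455010-85455822 with 16 fragments (9.15 to 26.0) at a −log10 q of 9.71, and its summit lay 18492 bp from Fos. The nearest untreated peak was 1846 bp away, and 2 untreated peaks lay within 10 kb. The next, inside the zinc transporter gene Slc39a10, spanned chr1:46853386-46854368 with 15 fragments (8.40 to 24.7), a −log10 q of 7.18 and 4 separate summits. Its surroundings were bare in both lists: no other IL-4 peak and no untreated peak lay within 10 kb.

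The third had 14 fragments (7.65 to 23.5) and lay at the start of the noncoding gene D130051D11Rik, with Wnt7b, which encodes a secreted Wnt ligand, as the nearest protein-coding gene. A region 66591 bp from Sox9, a developmental transcription factor gene, had 12 fragments (6.20 to 21.0) in 543 bp. The region inside Mrc1, which encodes the mannose receptor used as a marker of alternatively activated macrophages, spanned chr2:14277063-14277650. It had 12 fragments (6.20 to 21.0) at a −log10 q of 6.93, stood 48097 bp from the nearer end of the gene, and had its nearest untreated peak 3072 bp away.

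Sertad2, which encodes a transcriptional cofactor, held a region of 13 fragments (6.92 to 22.2), 904 bp and 3 summits. Adhfe1 held one of 11 fragments (5.49 to 19.7), and the same number stood inside Ptprk, a receptor tyrosine phosphatase gene. A region of 11 fragments also stood 39388 bp from the homeodomain gene Meis1. A region inside Cdkal1 tied with these at 11 fragments and a −log10 q of 6.45. The intervals of all of these overlap, so their order is not resolved. In the mirrored class the peak highest in −log10 q, nearest to the pheromone receptor gene Vmn2r117, had 14 fragments (7.65 to 23.5) at 7.36. In all, 8 peaks of that class reached 5. By fragments alone the mirrored class went higher, up to 75.

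Width and strength did not single out the same regions. The widest, inside the histone demethylase gene Kdm6b, measured 1218 bp with 13 fragments (6.92 to 22.2) at a −log10 q of 3.90. A region of 1186 bp in the vicinity of the tenascin gene Tnc, 438764 bp away, had 5 fragments (1.62 to 11.7). A region 16703 bp from Psap, the gene of the lysosomal protein prosaposin, had 1069 bp and 12 fragments. Those inside Ptprf and Lsp1, the latter an actin-binding protein of leukocytes, had 1057 bp with 7 fragments and 1045 bp with 5. The median width was 467 bp, and 109 regions were exactly 400 bp. Several summits were listed for 47 regions. Those inside Slc39a10 and Sertad2 had the most, and regions inside Hdac4, a histone deacetylase gene, near Tex44 and near 1700066M21Rik were named next, with 2 each.

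At the edges of the rule the values were ordinary. Just inside the width limit, regions of 400 bp near Oprk1, near Eya1 and inside Cracdl had 4, 5 and 4 fragments. Just outside it, 399 bp peaks near Epha4, Dpp10 and Capn8 had 4, 8 and 6. Just inside the distance limit, regions 10015 bp from an end of Arhgef17, 10023 bp from Actr3b and 10034 bp from Mal had 5, 5 and 4 fragments. Just outside it, peaks 9997 bp from ends of Acot11 and Myocd and 9998 bp from Olfr15 had 4, 5 and 6. The farthest regions lay 2212916 bp from Pik3c3, 2205726 bp from Pcdh20 and 2192293 bp from Celf4, with 6, 4 and 5 fragments.

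Distance from gene ends did not keep the regions away from transcription start sites. A RefSeq start window covers 250 bases upstream and 50 bases downstream of an annotated start, alternative and noncoding transcripts included. Windows on chromosome 18 were not used here, which leaves 8259 regions. Of these, 82 (0.993%, 0.801 to 1.23) overlapped a window, beside 2.39% of all IL-4 peaks, many of which lie at gene ends. The share was 0.381% (0.351 to 0.413) for the narrower peaks, 0.424% (0.274 to 0.653) for the mirrored class and 1.66% (1.04 to 2.65) for the wide peaks overlapped by an untreated one. A wider interval has more chance to touch a window, and the narrower peaks had a median width of 151 bp, so the positions of summits are given next.

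Summits of these regions were more frequent in the bins beside start sites than farther out. This held as well for the wide peaks overlapped by an untreated one and, less steeply, for the narrower peaks. Of the 82 regions, 65 had their summit within 250 bp of the start, and over the 82 the summit lay upstream in 45, downstream in 36 and on the start itself in the 1 at Pcgf5. In the 250 bp upstream of a start lay 0.412% of the 8259 summits, and in the 250 bp downstream 0.375%. The narrower peaks had 0.177% and 0.204% in the same bins, and the untreated-only peaks 0.148% and 0.212%. The wide peaks overlapped by an untreated one had 0.587% in each, or 6 of 1023 summits per bin. From 250 bp outward the share of the wide IL-4-only summits was between 0.0848% and 0.206% in each bin of 250 bp, out to 3000 bp on either side. In the same outer bins the narrower peaks had between 0.110% and 0.158%, and the untreated-only peaks between 0.0212% and 0.212%.

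**Figure D2:**
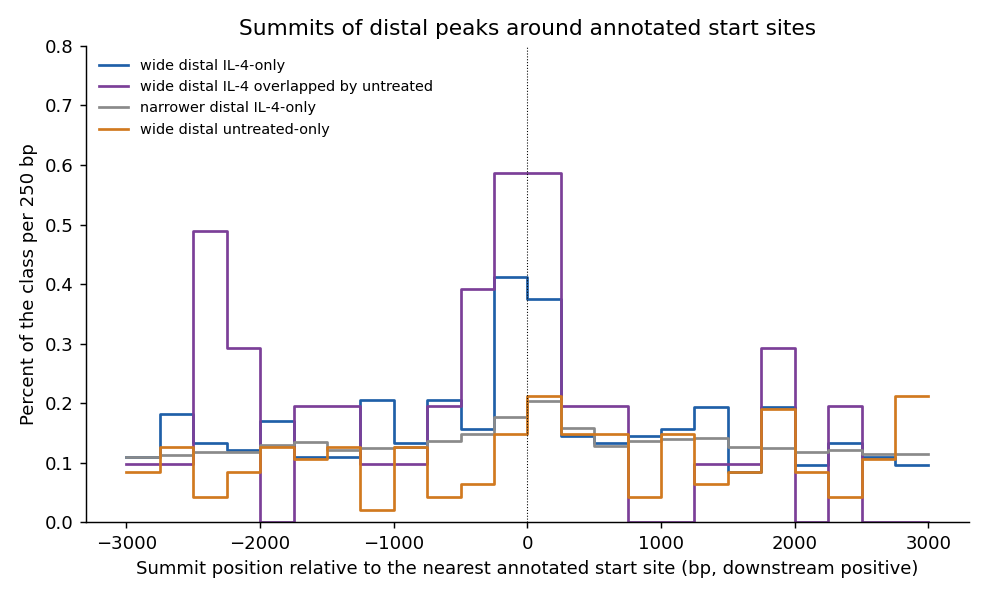
Summit position relative to the nearest annotated start site, in bp with downstream positive, against the percent of each class per 250 bp. The wide distal IL-4-only line reaches 0.412% and 0.375% in the bins beside the start, the line of wide IL-4 peaks overlapped by an untreated one (purple) reaches 0.587% in both, and the narrower and untreated-only lines stay at or below 0.212% there.

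Among these regions the share at a start window was higher in the stronger ones. It was 0.532% (0.323 to 0.876) for regions with a −log10 q under 1, 0.962% (0.719 to 1.28) from 1 to 2, and 1.25% (0.605 to 2.55) from 2 to 3. From 3 to 5 it was 4.88% (2.49 to 9.33), or 8 of 164 regions. At 5 or more it was 20.6% (10.4 to 36.8), or 7 of 34. The share in narrower peaks also went up across these bins, with 0.351%, 0.428%, 0.637%, 0.649% and, at 5 or more, 2.55%. The last was 4 of 157 at a window (0.995 to 6.37). Overlap with a window depends on width as well. Summit positions were not read by strength, so the part of width in these shares was not tested. The wide peaks overlapped by an untreated one had 4 of 50 at a window from 3 to 5 (Wilson interval 3.16 to 18.8%) and 1 of 20 at 5 or more (0.888 to 23.6%), and both intervals overlap those of the regions. None of the 8 untreated-only peaks of that strength had a window, with an upper bound of 32.4%. Leaving out the 34 strongest regions, the shares still ranged from 0.532% to 4.88%.

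**Figure D3:**
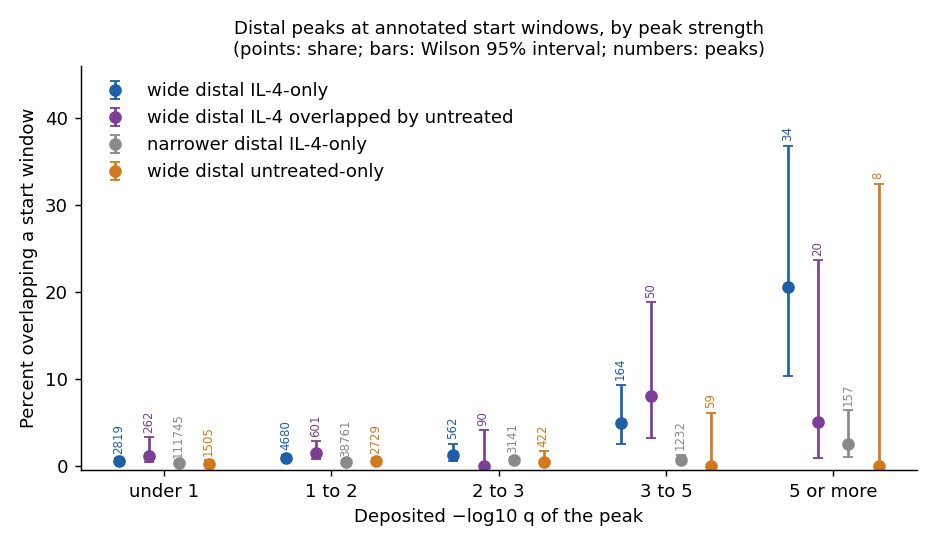
Percent of distal peaks overlapping a start window by deposited −log10 q, with Wilson 95% intervals and the number of peaks above each point. The wide distal IL-4-only points go from 0.532% to 20.6% across the bins, the narrower peaks reach 2.55%, and the wide peaks overlapped by an untreated one (purple) have 4 of 50 and 1 of 20 at a window in the top bins.

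Of the 82 regions, 35 lay at windows of protein-coding genes and 47 at windows of long noncoding RNA genes, with Gm34538 met by 2 regions. In all 35 protein-coding cases the start belonged to the gene that contained the region, that is, to a start inside the gene rather than at its outer end. The distance rule fixed this in advance. Besides Slc39a10 and Sertad2 they included Sh3tc1, with 12 fragments (6.20 to 21.0), and Iqgap1, which encodes a scaffold protein of the actin cytoskeleton, with 11 (5.49 to 19.7) in 968 bp. Lmna, the gene of the nuclear lamins A and C, had 12 (6.20 to 21.0), and Lrif1 had 10 (4.80 to 18.4). Itprid2 had 11 (5.49 to 19.7) at a −log10 q of 4.93. The next in strength were Cic, the gene of the transcriptional repressor capicua, with 14 fragments (7.65 to 23.5), Mga and the adiponectin receptor gene Adipor2 with 8 each, Rbpj, the DNA-binding effector of Notch, with 10, and the adenosine kinase gene Adk with 8. These were named after their values were seen, as the 15 windows at or above 3 in −log10 q, of which 1700028E10Rik and Slc17a8 complete the count. Runx1, a transcription factor gene of blood cells, had 6 fragments (2.2 to 13.1) at a start 46 bp from the summit.

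The outer ends of the same genes gave different pictures. No peak of either list lay within 1 kb of an outer end of Slc39a10, Sh3tc1, Itprid2 or Adipor2, so their inner start was the only one of those positions with a peak. At Sertad2 one outer end had 14 fragments with IL-4 and 8 without, and at Cic 17 and 7. Lmna had a peak of 5 fragments in each list at one end, Iqgap1 a strongest one of 5 with IL-4 alone, and Lrif1 one of 3 with IL-4 alone. At Mga the only outer-end peak was an untreated one of 5 fragments.

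Windows with many CpG made up a larger share under the regions than among distal windows at large, and a share whose interval reaches down to that of all start windows. At least 10 CpG in the upstream 250 bases occurred in 40 of 82 windows (48.8%, 38.3 to 59.4), and in 12 of the 15 at a −log10 q of at least 3 (80.0%, 54.8 to 93.0). Of the 9010 start windows more than 10 kb from protein-coding gene ends, 780 (8.66%, 8.09 to 9.26) had as many, of all start windows 38.3% (37.8 to 38.9), and of the 584 windows under narrower peaks 91 (15.6%, 12.9 to 18.8). Part of this follows the kind of gene: 28 of the 35 protein-coding windows (80.0%, 64.1 to 89.96) and 12 of the 47 noncoding ones (25.5%, 15.3 to 39.5) had at least 10, beside 28.1% and 5.03% of distal windows of each kind. The letters GGGCGG, which contain a CpG themselves, occurred on either strand in 31 of the 82 windows (37.8%), beside 11.1% of distal windows and 33.0% of all start windows. Seen from the genome, the regions overlapped 44 of 1419 distal windows of protein-coding genes (3.10%) and 99 of the 9010 distal windows of any gene (1.10%).

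Of the other motifs, TTC and GAA at the STAT6 spacing of 4 bases occurred in 13 of 82 windows (15.9%), beside 7.23% of distal windows, 7.71% of windows under narrower peaks and 5.90% of all start windows. The tighter spacing of 3 bases occurred in 3 (3.66%), beside 8.34% of distal windows. The AP-1 letters TGANTCA occurred in 9 (10.98%), beside 8.58%. The E-box CACGTG occurred in 9 (10.98%), beside 4.33%, and the ETS letters CCGGAA also in 9, beside 5.13%. Over all start windows the AP-1 letters, the E-box and the ETS letters occurred in 6.76%, 6.02% and 12.2%. CCAAT was at much the same level under the regions (34.1%) and in distal windows (31.8%). The PU.1 letters GAGGAAGT, of the factor that defines the myeloid lineage, occurred in 3 windows (3.66%) beside 3.01%. Also searched were the letters of CRE, NRF1, YY1, NF-kB and C/EBP, found in 2, 1, 4, 1 and 6 windows. In that order the shares were 2.44%, 1.22%, 4.88%, 1.22% and 7.32%, beside 0.73%, 0.111%, 4.9%, 1.23% and 11.2% of distal windows. All motifs were searched on both strands of the upstream 250 bases, matches of different motifs may overlap, and counts of 13 or fewer leave wide counting errors. Sequence outside the start windows was not used here.

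Beyond start sites, the regions were spread much like other distal peaks, with some differences between the classes. Of the 8580, 3622 lay inside a protein-coding gene (42.2%, 41.2 to 43.3). The share was 40.4% (40.1 to 40.6) for the narrower peaks, an interval below that of the regions. It was 41.9% (39.0 to 44.9) for the wide peaks overlapped by an untreated one and 41.2% (39.8 to 42.5) for the mirrored class. Of the distal sequence on these chromosomes, 37.2%, or 702 of 1885 Mb, lay inside such genes. Another IL-4 peak stood within 10 kb of 85.9% of the regions, beside 86.3% for narrower peaks and 89.1% for the wide overlapped ones. From 1 to 5 kb out, IL-4 peaks numbered 16.8 per 100 regions per kb. That number was 19.1 for narrower peaks, 17.3 for the wide overlapped ones and 22.2 for the mirrored class. An untreated peak stood within 10 kb of 71.3% of the regions (70.3 to 72.2), beside 71.4% of narrower peaks. In the mirrored class 76.0% (74.8 to 77.2) had another untreated peak within 10 kb. The median distance to a gene end was 68652 bp. It was 74716.5 bp for narrower peaks, 72476 bp for the wide overlapped ones and 74148 bp for the mirrored class. Across the 19 chromosomes the regions made up between 4.41% (chromosome 18) and 4.99% (chromosome 12) of the distal IL-4 peaks, and 4.77% in all.

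The strongest regions, at or above 5 in −log10 q, are too few to place firmly. Of these 34, 22 lay inside a protein-coding gene (64.7%, 47.9 to 78.5), 23 had another IL-4 peak within 10 kb (67.6%, 50.8 to 80.9), and 21 an untreated peak within 10 kb (61.8%, 45.04 to 76.1). For narrower peaks of that strength the shares were 41.1% (33.8 to 48.8), 85.9% (79.7 to 90.4) and 69.9% (62.5 to 76.5). Of the 20 wide peaks of that strength overlapped by an untreated one, 9 lay inside a gene (25.8 to 65.8%) and 17 had another IL-4 peak within 10 kb (64.0 to 94.8%). In each measure given the intervals of the regions overlap those of both classes, and the differences were not tested. Among the named ones, those at Slc39a10 and Sertad2 had no other peak of either list within 10 kb.

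Long genes held many of the regions. Csmd1 held 16 in its 1.64 Mb, and the one ranked first by −log10 q had 6 fragments. Anks1b, Cdh4, Esrrg, Gpc5, Negr1 and Ptprt held 10 each, and Agbl4, Asic2 and Dab1 held 9, as did 5 further genes. Per length these 10 genes, chosen for their number of regions, ranged from 6.98 per Mb in Gpc5 to 21.9 per Mb in the cadherin gene Cdh4. The distal genome as a whole had 4.55 per Mb. Genes over 500 kb together held 789 of the 8580 regions. Among the 10 genes named here, the strongest region lay inside Negr1, with 9 fragments at a −log10 q of 4.35. Narrower peaks were also many there, 169 in Csmd1 and 59 in Cdh4, and untreated-only wide peaks numbered 5 and 4. Of the 216 genes over 500 kb, 205 (94.9%) held at least 1 region and 82.9% held an untreated-only one. The 2147 genes with a region inside had a median length of 131.7 kb, against 17.5 kb for all protein-coding genes.

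The group with the most regions lay beside Atf3, which encodes a stress-inducible transcription factor of the ATF and CREB family. When regions up to 50 kb apart were joined, it held 8 regions between Atf3 and Nenf at chr1:191204657-191293460, a span of 88.8 kb. From the Atf3 side their fragment numbers were 4, 5, 11, 5, 12, 9, 7 and 4. The 11-fragment region (5.49 to 19.7) stood 47263 bp from Atf3 at a −log10 q of 4.93, and the 12-fragment one (6.20 to 21.0) stood 36865 bp from Nenf at 4.89. The second region of the group lay at the start window of the noncoding gene D730003I15Rik. In the same span the IL-4 list had 18 peaks and the untreated list 3, of which none was wide and untreated-only. The untreated peaks in the plotted stretch had at most 6 fragments.

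**Figure D4:**
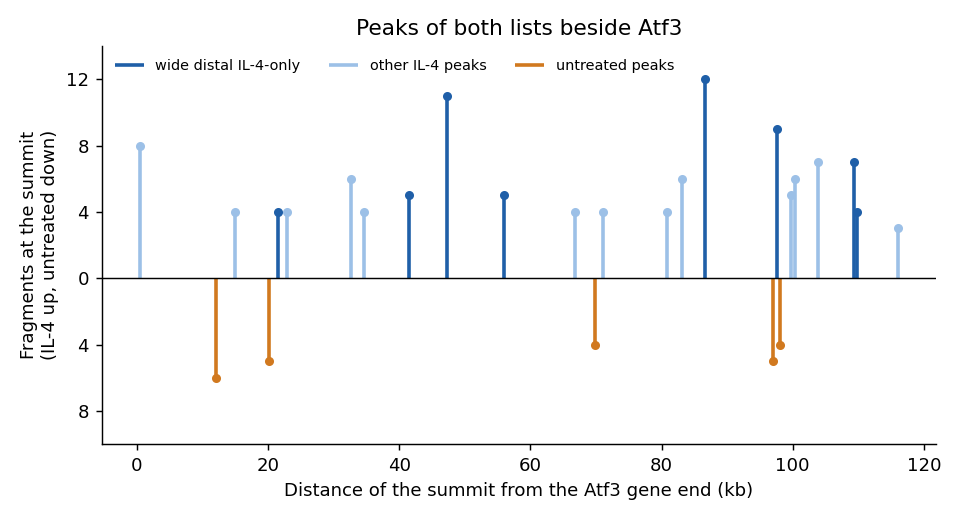
Peaks of both lists by the distance of the summit from the Atf3 gene end, in kb, with the fragments at the summit of IL-4 peaks drawn upward and of untreated peaks downward. The 8 wide distal IL-4-only regions (dark blue) reach 12 fragments, the 13 other IL-4 peaks (light blue) 8 and the 5 untreated peaks (orange) 6.

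A group of 7 lay between Cbln4 and Mc3r over 164.1 kb, with no region above 6 fragments, and groups of 6 lay at Hhat, at Tcerg1l and across Wdr25, Wars and Begain. A group of 5 at Sgcd, chosen after its values were seen, had the shortest span of the 9 groups with 5 or more regions, 32.6 kb, with at most 6 fragments per region. At Hhat the span held as many untreated peaks, 13, as IL-4 peaks. Over all regions, 35.4% had another within 50 kb and 7.61% within 10 kb, beside 25.3% and 5.51% in the mirrored class, which has fewer peaks. A total of 5544 regions had no other within 50 kb.

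Gene lists were read by whether a gene had one of the regions inside it or within 100 kb. Of all 20665 protein-coding genes on these chromosomes 39.7% did, and 18.6% had one at q of at most 0.05. An untreated-only wide peak stood as near to 24.5%. Longer genes are met more readily and the IL-4-only class is the larger one, so each list is given with its untreated-only count and its median gene length. Around genes crowded among other gene ends the rule also leaves less distal sequence, and the shares were not adjusted for this. The same region can be counted for several neighbouring genes, and the intervals of the lists do not allow for this. A peak near a gene does not measure its expression, so the cell type on the labels could not be checked this way.

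Inducible transcription factor genes had the largest share among the lists other than the long neuronal genes. Of the 20, 16 had a region (80.0%, 58.4 to 91.9) and 2 had an untreated-only wide peak, at a median gene length of 25.3 kb. Besides Fos and Atf3, which had 2 and 7 regions, Nfe2l2, the gene of the oxidative stress regulator NRF2, had 2, the stronger with 7 fragments (2.81 to 14.4). Rxra, encoding a retinoid X receptor, had 3, 2 of them inside the gene. Fosb, Jund, Nr4a1 and Rara had none. At q of at most 0.05 the count was 9 of 20 (45.0%, 25.8 to 65.8), beside 18.6% of all genes. Among other lists of more than 10 genes, PHLPP and AKT pathway genes had 9 of 24 (21.2 to 57.3%). The intervals held 18.6% for lipid metabolism, 5 of 20 (11.2 to 46.9%), and alternative activation, 7 of 30 (11.8 to 40.9%). They also held it for IL-4 receptor signalling (7 of 21), phagocytosis and cytoskeleton (6 of 19) and macrophage identity (7 of 24). Inflammatory genes had 0 of 24.

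Lipid metabolism genes had a region at 12 of 20 (60.0%, 38.7 to 78.1) and an untreated-only wide peak at 1, with a median length of 25.7 kb. The cholesterol exporter gene Abcg1 had one of 8 fragments (3.45 to 15.8) 18897 bp away, though an untreated peak lay 266 bp from it. The fatty acid-binding protein gene Fabp4 had one of 7, located inside Fabp12. Plin2, of the lipid droplet coat, and the scavenger receptor gene Cd36 had regions of 6 fragments, the latter inside the gene.

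Genes of alternative activation had a region at 17 of 30 (56.7%, 39.2 to 72.6) and an untreated-only wide peak at 6, with a median length of 13.8 kb. Mrc1 led with 3 regions, 2 of them inside the gene. Myc had one of 9 fragments (4.12 to 17.1) 53753 bp away. Cdh1, encoding E-cadherin, had 2 inside the gene, the stronger with 7 fragments and an untreated peak only 33 bp off. Klf4 had 2, the stronger with 6 fragments. Arg1, encoding arginase, falls outside the 4 strongest and was picked after its values were seen. It had 2 regions, and the one ranked first had 5 fragments (1.62 to 11.7) and stood 40261 bp away. Ccl17 and Ccl22, named because they share it, were both counted for 1 region of 5 fragments.

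IL-4 receptor signalling genes had a region at 13 of 21 (61.9%, 40.9 to 79.3) and an untreated-only wide peak at 4, with a median length of 52.8 kb. Irs2, an adaptor of the receptor, had 3, the strongest with 7 fragments (2.81 to 14.4). Ptpn11, the gene of the phosphatase SHP-2, had one of 7 located inside Hectd4, and the kinase gene Jak3 had one of 6. Stat6 had 2, with a region of 6 fragments (2.2 to 13.1) 10785 bp from the gene. Il4ra itself had none. Stat3, Stat5a and Stat5b, named because they share it, were all counted for 1 region of 3 fragments inside Stat3.

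PHLPP and AKT pathway genes had a region at 13 of 24 (54.2%, 35.1 to 72.1) and an untreated-only wide peak at 6, with a median length of 78.8 kb. The strongest, counted for the kinase gene Gsk3a 44454 bp away, was the one at the inner start of Cic. Rheb, Rps6kb1 and Prkca, genes of mTOR signalling and of a protein kinase C, had regions of 6 fragments, those of Prkca inside the gene. Phlpp1 itself held 1 region of 5 fragments (1.62 to 11.7), and Akt1 had one of 6 at 94663 bp. The last pair were picked after their values were seen, because the study targets PHLPP1.

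Phagocytosis and cytoskeleton genes had a region at 13 of 19 (68.4%, 46 to 84.6) and an untreated-only wide peak at 4, with a median length of 66.2 kb. For each of the 13 genes the region with the highest −log10 q had at most 6 fragments. Vav3, encoding a guanine nucleotide exchange factor, had 6 regions, 3 inside the gene. The Src-family kinase genes Lyn and Fgr had 2 each, and Rac1 had 1.

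Macrophage identity genes had a region at 9 of 24 (37.5%, 21.2 to 57.3), close to the share of all genes, and an untreated-only wide peak at 2, with a median length of 17.2 kb. The region for Cd14, the lipopolysaccharide co-receptor, had 9 fragments (4.12 to 17.1) in 969 bp. Cebpa had one of 8 (3.45 to 15.8) 21100 bp away, and Mertk had one of 6. Spi1, Csf1r, Adgre1 and Cd68 had none. Inflammatory genes, which are short, with a median of 7.53 kb, had a region at 3 of 24 (12.5%, 4.34 to 31.0) and an untreated-only wide peak at 1. Those were Ptgs2, Ccl2 and Nfkb1, with 6, 5 and 4 fragments.

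Marker genes of other blood and stromal cells had a region at no more than 4 genes per list, with 10 or fewer genes in each. Neutrophil genes (median length 3.36 kb) had a region at 1 of 10, Ltf, and an untreated-only wide peak also at 1. Stromal genes (27.8 kb) had 3 of 10 and 2, and erythroid genes (10.6 kb) 3 of 8 and 1, in the same order. B cell genes (8.99 kb) had 4 of 10 and 3, with 5 IL-4-only regions inside the long gene Ebf1, the strongest of 9 fragments (4.12 to 17.1). T cell genes (24.4 kb) had 4 of 10, and an untreated-only wide peak at 6. All 10 long neuronal genes, with a median length of 1294 kb, had a region, and 9 had an untreated-only one. Ptprd and Nrxn3 had 11 regions each and Csmd1 17.

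**Figure D5:**
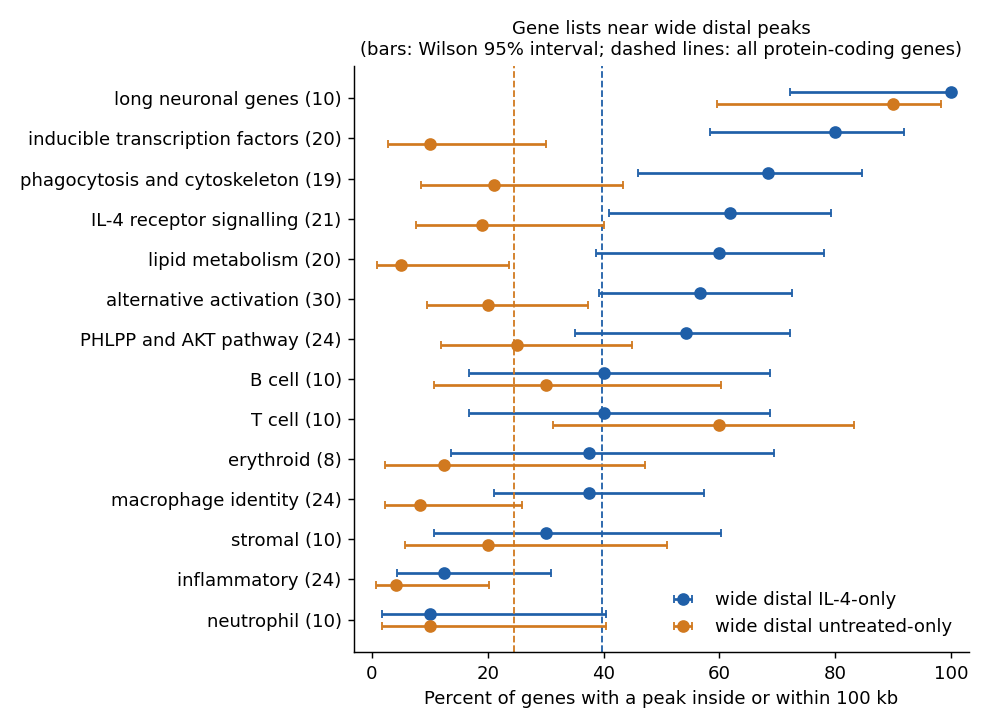
Percent of the genes of each list with a wide distal IL-4-only peak (blue) or a wide distal untreated-only peak (orange) inside or within 100 kb, with Wilson 95% intervals and list sizes in brackets. The dashed lines mark all protein-coding genes, 39.7% and 24.5%. All 10 long neuronal genes had an IL-4-only peak and 9 an untreated-only one, inducible transcription factors had 16 and 2 of 20, and neutrophil genes 1 of 10 in both.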

How the data were processed

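The authors deposited 1 narrowPeak list per library, with peaks called per sample. The tools in the submitters' processing notes are MACS2 2.2.7.1, Bowtie 0.12.8 and DiffBind, with mm10 as the build. Not given in the sources used here are their roles, the control, duplicate handling and fragment size. The deposited values are a score, a fold enrichment (a linear ratio to local background), a −log10 p and a −log10 q per peak, all the authors' own. They were used to describe and rank peaks within a list. Total reads were not used, so the lowest local background stands for depth.

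For an interval listed with several summits, the one highest in −log10 q was used. Fragments were solved from fold, taken as (fragments + 1)/(background + 1), and the Poisson upper tail, within 0.01 for 100.0% of entries. Gene positions came from the RefSeq table of GRCm38.p6, without strand (21900 protein-coding genes, 20665 on chromosomes 1 to 19), and start windows from its promoter table. Lists overlapped at 1 bp. Scripts in Python 3.11.15 with numpy 2.4.6, pandas 2.3.3, scipy 1.17.1, statsmodels 0.14.6 and matplotlib 3.10.9 were tested on simulated data. With 1 library per group no test was made: shares carry Wilson 95% intervals and fragments exact Poisson ones.

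The regions and the 14 gene lists (245 genes, 240 on these chromosomes) were chosen with earlier results of these data known. Peaks named were the 10 with the highest −log10 q, the 5 widest, the 5 with most summits, the 3 farthest from gene ends and 3 on each side of each threshold. Genes named were those nearest to or containing these, the 10 with most regions inside and up to 4 per list by −log10 q, ties in genome order. A few that the rule names are not reported here. Alternatives changed the width, distance, gene type, overlap and q settings.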

Additional observations from a re-analysis of the deposited data

How the results depend on the processing

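Of 73 alternative values, 43 were counted as the same as the value reported and 30 as moved. Shares counted as the same lay within the counting interval of the value reported. For the number of regions the margin was wider. Numbers counted as the same ranged from 6598 with ends of genes of any type to 9700 at 5 kb from gene ends, against 8580. The number of regions was 24844 at a minimum width of 300 bp, 3095 at 500 bp, 2796 at q of at most 0.05 and 34 at −log10 q of at least 5. In the order q of at most 0.05 and −log10 q of at least 5, the median fragments were 6 and 11, and the share of wide distal IL-4 peaks with no untreated peak overlapping was 86.0% and 63.0%. That share was 91.2% at 300 bp, 86.8% at 500 bp and 76.4% when untreated peaks within 1 kb also counted. The share inside a protein-coding gene was 43.9% at 5 kb from gene ends, 39.9% at 20 kb, 46.3% with ends of genes of any type and 64.7% at −log10 q of at least 5. At that strength another IL-4 peak stood within 10 kb of 67.6% and an untreated one within 10 kb of 61.8%. The latter was 66.6% for regions with no untreated peak within 1 kb. Macrophage identity genes with a region made up 62.5% at 300 bp, 20.8% at 500 bp, 58.3% at 5 kb, 20.8% with ends of genes of any type and 0% (0 of 24) at −log10 q of at least 5. The share at a start window was 0.754% at 300 bp, 1.35% at 500 bp, 1.33% at 5 kb, 0.441% with ends of genes of any type, 1.45% at q of at most 0.05, 20.6% at −log10 q of at least 5 and 1.71% counting summits within 1 kb of a start. Stricter thresholds leave fewer regions by construction, and other causes were not tested.

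The start window share, the −log10 q bins, the 50 kb grouping and the motifs were chosen after seeing the data. No paired analysis was possible because each group had 1 library. Fragment numbers of 3 to 6 set the limit on most regions.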

Other observations

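A few of the regions lay beside microRNA genes. These were picked after their values were seen, as the regions with a summit within 2 kb of a RefSeq hairpin. The strongest, of 8 fragments at a −log10 q of 2.90, had its summit 278 bp from Mir365-1. A region of 738 bp and 7 fragments lay between Mir182 and Mir96, members of a cluster known from sensory cells, 1613 bp from the first and 1841 bp from the second. A region of 722 bp and 4 fragments lay 1406 bp from Mir17, the first hairpin of an oncogenic cluster that also holds Mir18, Mir19a and Mir20a. Mir5099 had one of 7 fragments at 716 bp, and Mir3070a, Mir3070b and Mir431, near Rtl1, shared one of 6 fragments. Mir21b had one of 3 fragments, the lowest number in the list.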
